A study of Rattus norvegicus with 18 samples.

Results

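Immediate early genes outside the AP-1 family were followed in the dorsal hippocampus of rats. The 10 genes were the 4 Egr genes (Egr1, Egr2, Egr3 and Egr4), the 3 Nr4a genes (Nr4a1, Nr4a2 and Nr4a3), Npas4, Arc and Ier2. They were chosen by name from the 38445 genes listed in the count files, and all 10 were among the 17853 genes tested. RNA-Seq was performed on 18 adult male wild-type Sprague Dawley rats, with 1 library per animal and 6 rats per group. Control rats received the Lieber-DeCarli control liquid diet. Chronic Ethanol rats received the same kind of liquid diet with 9% ethanol (v/v) for 15 or 16 days, as the labels give it, and were taken with 0 h of withdrawal. Withdrawal rats received the ethanol diet and were taken after 24 h without ethanol, on control diet. Each library pools all cells of the dissected tissue, so fewer cells of a type and less RNA per cell cannot be told apart.

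Immediate early genes are transcribed within minutes of neuronal firing or growth factor signals, without the need for new protein synthesis, and their mRNAs are short-lived. In the hippocampus they are widely used as marks of recent neuronal activity. Calcium entry and kinase signaling reach their promoters through transcription factors that include SRF, which binds the CArG box, and CREB, which binds the cAMP response element (CRE). The EGR proteins are zinc finger transcription factors, the NR4A proteins are orphan nuclear receptors, NPAS4 is a bHLH-PAS transcription factor that follows calcium entry in neurons, and Ier2 encodes a nuclear protein of the early response. Arc encodes no transcription factor but a protein that acts at the synapse, where it takes part in the removal of AMPA receptors.

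Promoter sequences were at hand in RefSeq (GRCr8) for 7 of the 10 genes, and those of Egr3, Nr4a3 and Arc were not used here. In windows from 250 bases before to 50 after the start, the CArG box was present in Egr1 and Egr2, against 1.64% of 33469 rat promoters of the same length. The full CRE, TGACGTCA, was present in Ier2, against 1.83% of promoters. Its core TGACG, which lies within the full CRE, was present in 6 of the 7 windows (Egr1, Egr2, Egr4, Nr4a1, Nr4a2 and Ier2), against 21.2% of promoters. Both strands were searched. The 250 bases before the start are shown for 1 gene of each kind, since Egr2, Ier2 and Nr4a1 were the 3 genes with the largest ratio in Chronic Ethanol rat 5, described further on. Capitals mark the CArG box in Egr2 and the CRE core in Ier2 and Nr4a1, where CGTCA is the core on the opposite strand, and the pair of overlapping cores in Ier2 forms the full CRE.
Egr2 (chr20:21054442-21054691, minus strand, GRCr8): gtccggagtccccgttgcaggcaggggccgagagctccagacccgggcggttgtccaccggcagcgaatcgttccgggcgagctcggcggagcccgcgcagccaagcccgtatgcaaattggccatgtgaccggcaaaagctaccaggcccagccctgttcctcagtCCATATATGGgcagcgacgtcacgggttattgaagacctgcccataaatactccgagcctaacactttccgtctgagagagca
Ier2 (chr19:40399123-40399372, plus strand, GRCr8): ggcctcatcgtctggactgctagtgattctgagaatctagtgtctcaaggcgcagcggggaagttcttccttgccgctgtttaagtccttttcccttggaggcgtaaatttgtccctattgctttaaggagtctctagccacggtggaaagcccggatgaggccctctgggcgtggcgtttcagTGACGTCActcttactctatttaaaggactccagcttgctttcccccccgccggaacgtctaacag
Nr4a1 (chr7:134259888-134260137, plus strand, GRCr8): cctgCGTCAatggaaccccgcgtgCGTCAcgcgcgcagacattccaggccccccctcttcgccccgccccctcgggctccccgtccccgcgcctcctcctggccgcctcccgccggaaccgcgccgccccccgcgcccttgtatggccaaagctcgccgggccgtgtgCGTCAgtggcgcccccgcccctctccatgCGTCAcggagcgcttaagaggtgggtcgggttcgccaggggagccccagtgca
A match of letters is a description of the sequence and does not show that a factor was bound in these rats.

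Total counts on genes ranged from 30873228 to 42679748 per rat, with a median of 36302755. A member had between 19 (Egr2, Control rat 3) and 12573 counts in a rat. Levels are given as TMM-normalized CPM (counts scaled to a common library size) with mean ± SD over 6 rats unless stated otherwise. The index sequences that tag the libraries fell into 3 sets, 1 for Control, 1 for Chronic Ethanol together with Withdrawal rats 1 and 2, and 1 for the remaining 4 Withdrawal rats, so an index set and the difference from Control cannot be told apart. None of the 12 cell type marker lists of 5 genes had a gene at 0 in every rat. Markers of CA1 neurons added up to 181 CPM in Chronic Ethanol rat 1 and 166 CPM in Withdrawal rat 5, against 286 to 500 CPM in the other 16 rats. Hemoglobin and other red blood cell markers added up to 127 to 225 CPM in Control, 37.0 to 96.1 CPM in Chronic Ethanol and 41.5 to 151 CPM in Withdrawal rats, and 4 of the 5 fell in both comparisons with Control. Astrocyte markers added up to 2683 to 3025, 2282 to 3054 and 2242 to 3720 CPM in the same order, and endothelial markers to 274 to 326, 298 to 339 and 281 to 362 CPM. In Withdrawal vs. Control 1 astrocyte and 2 endothelial markers rose, while 2 astrocyte markers and 1 of dentate granule neurons fell, and in Withdrawal vs. Chronic Ethanol 1 astrocyte and 1 interneuron marker rose. The lists for CA1 and CA3 neurons, microglia, oligodendrocytes, choroid plexus, thalamus and neocortex had 0 genes called by limma-voom in any comparison. The part of these cell types in the results on the 10 genes was not tested.

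In Control rats, Egr1 had the highest level per kilobase of annotated exon, at 27.1 ± 3.30 CPM per kb. It was followed by Arc at 21.4 ± 3.95, Egr3 at 17.8 ± 2.19 and Nr4a3 at 14.4 ± 1.76 CPM per kb. The ranges of these neighbours overlapped, although each gene was above the next in 6 of 6 Control rats. Nr4a2 (6.84 ± 0.405), Nr4a1 (5.88 ± 1.20), Ier2 (4.87 ± 1.02) and Egr4 (3.87 ± 0.904 CPM per kb) formed the middle, also with overlapping ranges between neighbours. Npas4 was lower at 1.70 ± 0.767 CPM per kb, and Egr2, which is also known from myelinating Schwann cells, was the lowest at 0.163 ± 0.108 CPM per kb. The ranges did not overlap between Nr4a3 and Nr4a2, between Egr4 and Npas4, or between Npas4 and Egr2. The annotated exons of Egr1 add up to only 1527 bases, a multiple of 3, against 2148 bases for Egr4, 4158 for Egr3 and 7055 for Egr2, so the level of Egr1 per length rests on a shorter gene model than that of its relatives.

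**Figure D1:**
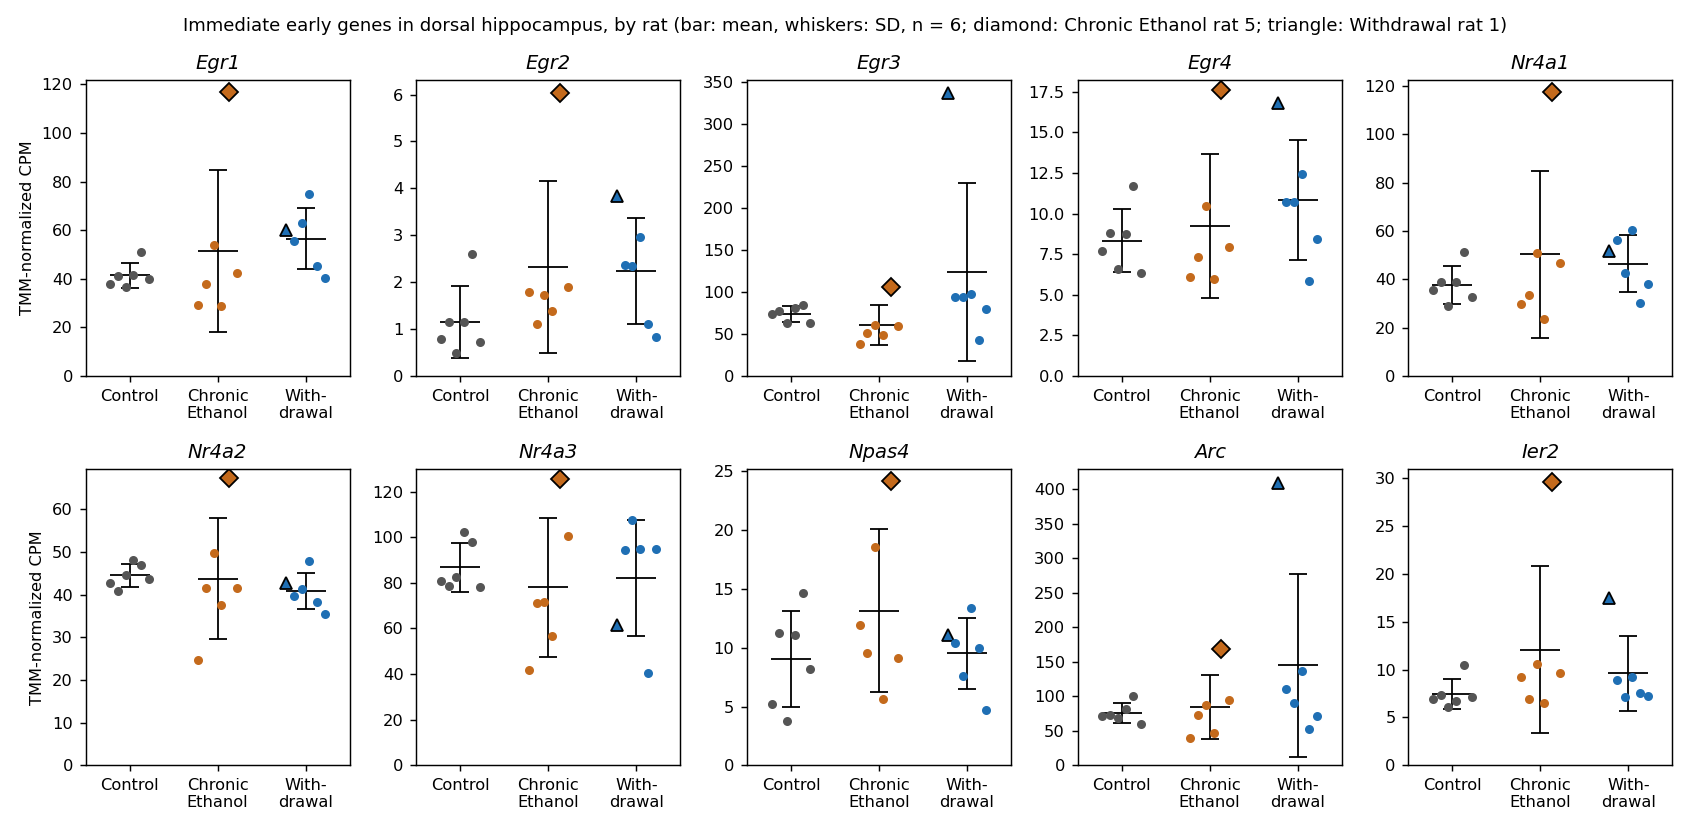
TMM-normalized CPM (vertical axis, from 0) of the 10 genes in each of 6 Control, 6 Chronic Ethanol and 6 Withdrawal rats, with the group mean as a bar and the SD as whiskers. Chronic Ethanol rat 5 (diamond) was the highest of its group for all 10 genes, and Withdrawal rat 1 (triangle) reached 337 CPM for Egr3 and 409 CPM for Arc.

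The groups overlapped for every one of the 10 genes in every comparison, whereas 1.06%, 1.32% and 1.22% of all genes tested were free of overlap in Withdrawal vs. Control, Chronic Ethanol vs. Control and Withdrawal vs. Chronic Ethanol. Chronic Ethanol rat 5 had the highest level of all 18 rats for 8 of the 10 genes (Egr1, Egr2, Egr4, Nr4a1, Nr4a2, Nr4a3, Npas4 and Ier2), while it was the highest rat for 7.97% of all genes tested. Withdrawal rat 1 had the highest level for the other 2, Egr3 and Arc, and was the highest rat for 11.7% of all genes. Control rat 5 was highest for 0 of the 10 genes among all 18 rats, but among Control rats it was highest for 8 of the 10 (all but Nr4a2 and Nr4a3), beside 17.9% of all genes. These rats were singled out after the values of the 10 genes had been seen, so their ranks are a description without a test. In what follows, the 2 rats that stood apart are Chronic Ethanol rat 5 and Withdrawal rat 1. In the comparisons with Control, values without Control rat 5 are given beside those without them.

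Egr1, the best known of the zinc finger family, ranged from 36.8 to 51.0 CPM in Control rats (median 40.6), from 28.8 to 117 CPM in Chronic Ethanol rats (median 40.1) and from 40.2 to 74.8 CPM in Withdrawal rats (median 57.9). In Withdrawal, 4 of 6 rats were above every Control rat. The medians of Control and Chronic Ethanol rats were close, and the high end of the Chronic Ethanol group was rat 5.
Egr2 ranged from 0.481 to 2.61 CPM (median 0.969) in Control, from 1.10 to 6.03 CPM (median 1.76) in Chronic Ethanol and from 0.823 to 3.84 CPM (median 2.35) in Withdrawal rats. It was the gene with the widest spread among Control rats, where the coefficient of variation was 66.1%.
Egr3, which is induced in neurons together with Egr1, ranged from 62.8 to 85.0 CPM (median 75.8) in Control, from 38.4 to 106 CPM (median 55.6) in Chronic Ethanol and from 42.8 to 337 CPM (median 94.0) in Withdrawal rats. All Chronic Ethanol rats but rat 5 were below every Control rat, with levels of 38.4 to 61.0 CPM. In Withdrawal, 4 of 6 rats were above every Control rat and 1, rat 5, was below every Control rat.
Egr4 ranged from 6.34 to 11.7 CPM (median 8.24) in Control, from 5.96 to 17.6 CPM (median 7.63) in Chronic Ethanol and from 5.83 to 16.8 CPM (median 10.7) in Withdrawal rats. Its highest values belonged to the same 2 rats as those of Egr3, in the opposite order.

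Nr4a1, the nuclear receptor also called Nur77, ranged from 28.8 to 51.2 CPM (median 37.2) in Control, from 23.6 to 118 CPM (median 40.3) in Chronic Ethanol and from 30.1 to 60.4 CPM (median 47.1) in Withdrawal rats. Apart from rat 5, no Chronic Ethanol rat was above the highest Control rat.
Nr4a2, the receptor Nurr1 that dopamine neurons also require, ranged from 40.9 to 48.0 CPM (median 44.1) in Control, from 24.7 to 67.3 CPM (median 41.6) in Chronic Ethanol and from 35.4 to 47.9 CPM (median 40.4) in Withdrawal rats. It was the steadiest member in each group, with coefficients of variation of 5.92%, 32.3% and 10.5%.
Nr4a3 ranged from 78.0 to 102 CPM (median 81.7) in Control, from 42.0 to 126 CPM (median 71.4) in Chronic Ethanol and from 40.5 to 107 CPM (median 94.5) in Withdrawal rats. Its level in Withdrawal rat 1 was low, at 61.4 CPM, which ranked 15 of 18 rats.

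Npas4 ranged from 3.80 to 14.7 CPM (median 9.63) in Control, from 5.61 to 24.2 CPM (median 10.7) in Chronic Ethanol and from 4.70 to 13.4 CPM (median 10.2) in Withdrawal rats. No Withdrawal rat was outside the Control range.
Arc ranged from 60.2 to 101 CPM (median 72.0) in Control, from 39.4 to 169 CPM (median 79.9) in Chronic Ethanol and from 52.9 to 409 CPM (median 100.3) in Withdrawal rats. Its coefficient of variation of 91.3% in Withdrawal was the largest of the 10 genes in any group, and it was 35.4% in the 5 Withdrawal rats other than rat 1.
Ier2 ranged from 6.06 to 10.5 CPM (median 7.02) in Control, from 6.50 to 29.6 CPM (median 9.44) in Chronic Ethanol and from 7.16 to 17.5 CPM (median 8.26) in Withdrawal rats. Without the highest rat of each group, its values lay between 6.06 and 10.6 CPM in all 3 groups.

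**Figure D2:**
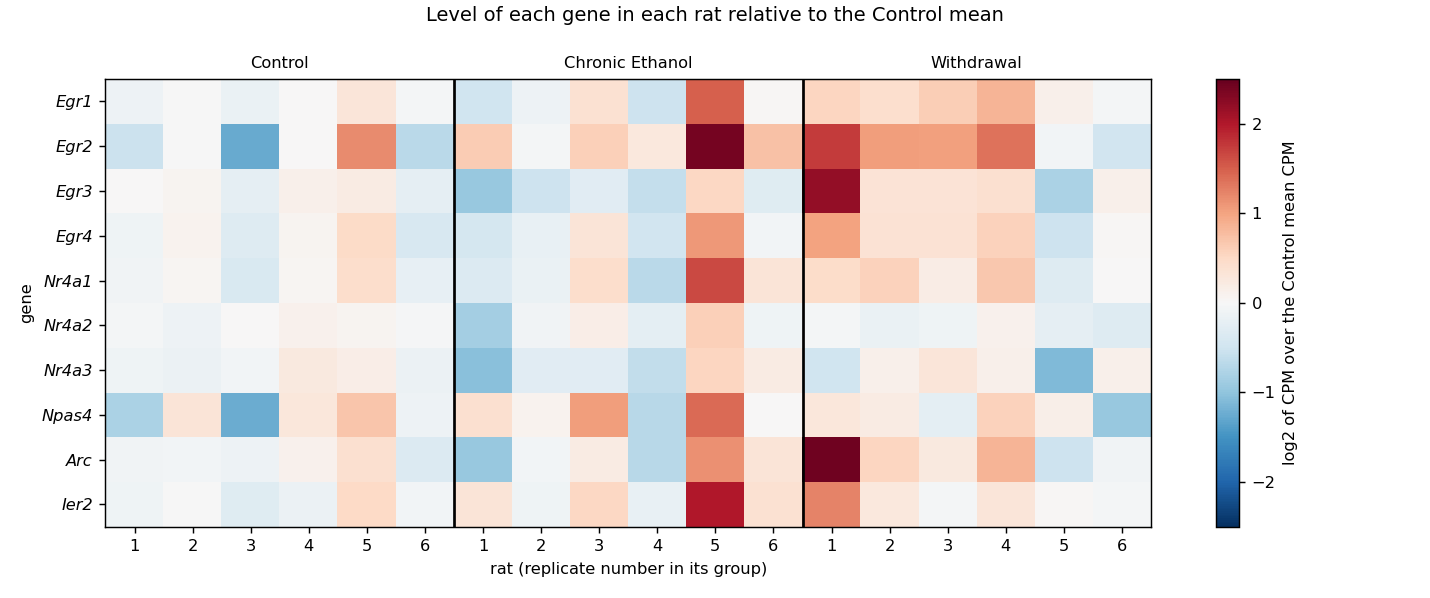
Log2 of the CPM over the Control mean CPM (color scale) for the 10 genes (rows) in the 18 rats (columns, numbered by replicate within each group). Red columns mark Chronic Ethanol rat 5, high for all 10 genes, and Withdrawal rat 1, high for Arc, Egr3, Egr2, Ier2 and Egr4 but not for Nr4a2 or Nr4a3.

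The spread between rats was larger in the ethanol groups. The median coefficient of variation over the 10 genes was 19.4% in Control, 53.6% in Chronic Ethanol and 33% in Withdrawal rats, beside 9.20%, 12.4% and 13.6% over all genes tested. All 10 genes varied more in Chronic Ethanol than in Control rats, as did 70.7% of all genes, and 8 of 10 varied more in Withdrawal than in Control rats, as did 72.8% of all genes. Without Chronic Ethanol rat 5 and Withdrawal rat 1, the median over the 10 genes was 25.6% in Chronic Ethanol and 27.9% in Withdrawal, and 7 of the 10 genes varied more than in Control in each, beside 62.1% and 67.9% of all genes. All Control rats were kept in that count, so the sets of rats are not alike. Among Control rats, rat 5 was the highest for 8 of the 10 genes (Nr4a2 and Nr4a3 were highest in rat 4), and the Control spread without it is not given.

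The elevated rats differed from each other in which genes were high. In Chronic Ethanol rat 5, the 10 genes were 1.62-fold (Nr4a2) to 3.49-fold (Nr4a1) above the median of the other 5 rats of the group, and all 10 were more than 1.5-fold above it, against 3.42% of all genes. After Nr4a1, the largest ratios were 3.48-fold for Egr2, 3.20-fold for Ier2 and 3.10-fold for Egr1. In Withdrawal rat 1, the ratio was 4.55-fold for Arc and 3.59-fold for Egr3, while it was 1.09-fold for Egr1, 1.11-fold for Npas4, 1.08-fold for Nr4a2 and 0.649-fold for Nr4a3. Of the 10 genes, 5 were more than 1.5-fold above the median of the other Withdrawal rats (Arc, Egr3, Ier2, Egr2 and Egr4), against 7.39% of all genes.
Among the AP-1 genes, which encode the FOS and JUN proteins, Fos was 6.48-fold above the other Chronic Ethanol rats in rat 5 and 2.17-fold above the other Withdrawal rats in rat 1. Of 7 AP-1 genes, Fos and Junb were highest of the 18 rats in Chronic Ethanol rat 5, and Fosb, Fosl2, Jun and Jund in Withdrawal rat 1. The remaining one, Fosl1, is not counted here, since it passed the filter on low values only through 2 Withdrawal rats. Of 18 further immediate early genes, 5 were highest in Chronic Ethanol rat 5 and 12 in Withdrawal rat 1, beside 7.97% and 11.7% of all genes. The 15 later activity-regulated genes, such as Bdnf and Nptx2, were highest in Withdrawal rat 1 in 9 cases and in Chronic Ethanol rat 5 in 0 cases. The shares of all genes were 11.7% and 7.97%, and 0 of 15 is near the latter. Among 17 upstream regulators, which include Srf and Creb1, none was more than 1.5-fold above the other rats of the group in either rat. This is near the shares of all genes, 3.42% in Chronic Ethanol rat 5 and 7.39% in Withdrawal rat 1.

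**Figure D3:**
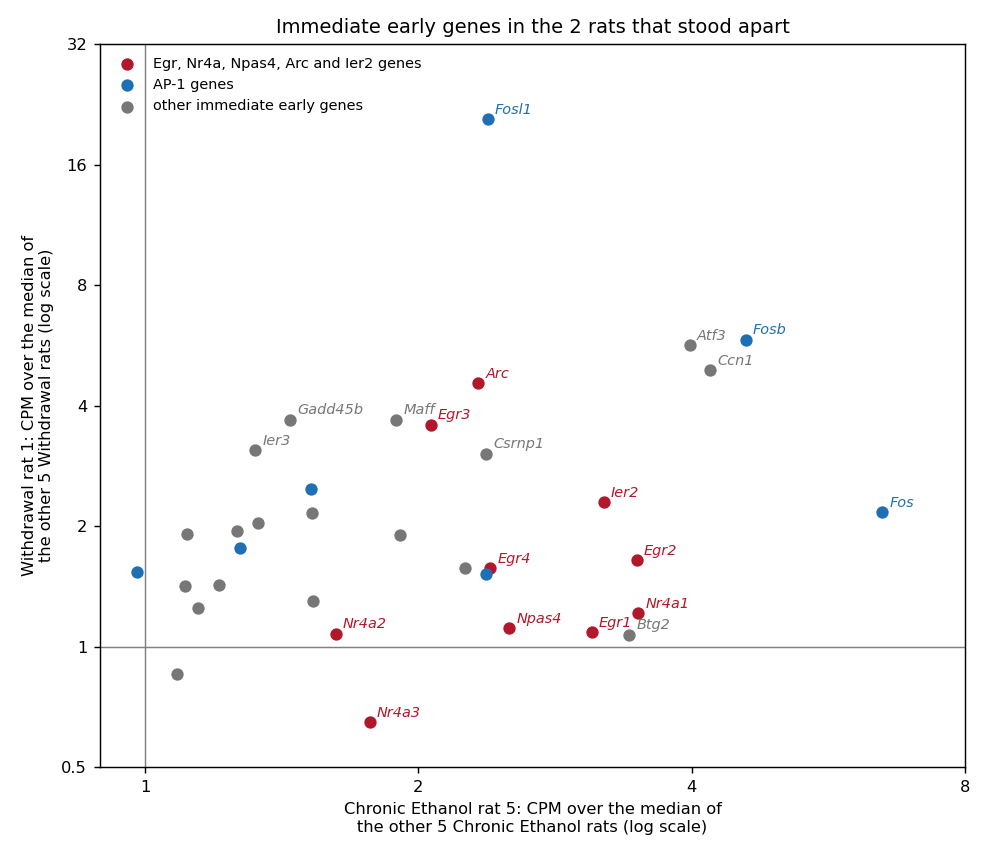
Ratio of the CPM in Chronic Ethanol rat 5 to the median of the other 5 Chronic Ethanol rats (horizontal axis, log scale) against the same ratio for Withdrawal rat 1 (vertical axis, log scale), with 1 point per gene. Arc and Egr3 lie high on the vertical axis at 4.55 and 3.59, and Egr1, Nr4a1 and Egr2 lie to the right at 3.10, 3.49 and 3.48.

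The cell type markers also differed in these rats. In Chronic Ethanol rat 5, markers of CA3 neurons (707 CPM) and dentate granule neurons (279 CPM) were the highest of the 18 rats, those of CA1 neurons (475 CPM) ranked 2 of 18, and those of oligodendrocytes (12059 CPM) and neocortex (153 CPM) were the lowest. In Withdrawal rat 1, markers of CA3 neurons (358 CPM) and dentate granule neurons (197 CPM) ranked 17 of 18, those of interneurons (597 CPM) ranked 2 and those of endothelial cells (362 CPM) ranked 1. Chronic Ethanol rat 1 and Withdrawal rat 5, with the lowest CA1 markers, were the lowest of the 18 rats for Egr3, Nr4a2 and Arc and for Egr4 and Nr4a3, respectively. Within their own groups they were the lowest for 4 and 5 of the 10 genes, beside 23.3% and 23.5% of all genes. The remaining members were lowest of the 18 rats in Control rat 3 (Egr2, Npas4 and Ier2) and Chronic Ethanol rat 4 (Egr1 and Nr4a1), whose CA1 markers ranked 13 and 16. Thalamus markers added up to 1332 CPM in Chronic Ethanol rat 1, against 221 to 768 CPM in the other 17 rats. The part of tissue make-up in the levels of the 10 genes was not tested.

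The first comparison, Withdrawal vs. Control, asks how the hippocampus of rats 24 h after the removal of ethanol differed from that of rats that never had it. Of the 10 genes, 0 were called by limma-voom with 3 surrogate variables (unnamed sources of variation estimated from the data) at a Benjamini-Hochberg adjusted p (q) under 0.1, beside 5.41% of all genes tested. At an unadjusted p under 0.05 it was 1 gene, Egr1, beside 19.7% of all genes, and both edgeR and DESeq2 with the same surrogate variables called 0 of the 10, beside 5.77% and 9.1% of all genes. The fitted log2 fold change was above 0 for 7 of the 10 genes with a median of 0.31, beside 0.000303 over all genes.
For Egr1, the mean was 56.5 ± 12.6 CPM in Withdrawal and 41.4 ± 5.04 CPM in Control. The log2 fold change was 0.39 (SE 0.16, 95% interval 0.04 to 0.73, q = 0.205), and the two-sided exact permutation test on log2 CPM gave p = 0.0216, the smallest of the 10 genes and without adjustment for the 30 such tests made. The smallest p that 6 rats against 6 allow is 0.00216. Without the 2 rats that stood apart, the exact permutation p of Egr1 was 0.0368. Without Control rat 5 alone, the median difference in mean log2 CPM over the 10 genes went from 0.32 to 0.43, and the exact permutation p, without adjustment, was 0.0173 for Egr1 (difference 0.49), 0.0303 for Egr2 (1.21) and 0.0433 for Ier2 (0.41). Without all 3 rats the median was 0.28, and the exact permutation p was 0.0238 for Egr1, 0.0635 for Egr2 and 0.0317 for Ier2. Control rat 5 had been singled out after it was seen to be the highest Control rat for these 3 genes. Leaving it out widened their differences by that choice, so the p values without it are a description and no test of a rise. In limma-voom without Control rat 5, 0 of the 10 genes were called, beside 2.98% of all genes.
Arc had a mean of 145 ± 133 CPM in Withdrawal and 76.0 ± 14.0 CPM in Control, and its difference in mean log2 CPM was 0.60 (exact permutation p = 0.190). Without Withdrawal rat 1 the Arc mean was 92.4 ± 32.7 CPM (n = 5), and the difference was 0.22 (exact permutation p = 0.383). For Egr3 the difference was 0.45 (exact permutation p = 0.366) with all rats and 0.096 (exact permutation p = 0.721) without that rat. For the 2 members with the largest means in Withdrawal, most of the difference from Control was gone without 1 rat.
Nr4a2 was the member with the narrowest spread among Control rats, and its log2 fold change was -0.16 (95% interval -0.35 to 0.02, q = 0.319). The interval for Nr4a3 ran from a fold of 0.875 to 1.10, and that for Npas4 from 0.607 to 1.60, so a change of Npas4 by 1.5-fold in either direction was within its error.

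The second comparison, Chronic Ethanol vs. Control, asks what differed while the rats still received ethanol. Again 0 of the 10 genes were called by limma-voom, beside 0.493% of all genes. At an unadjusted p under 0.05 there were 5 genes, all with a positive fold change (Egr1, Egr2, Nr4a1, Npas4 and Ier2), beside 12.5% of all genes, and edgeR and DESeq2 with the same surrogate variables called 0, beside 0.538% and 2.65% of all genes. The fitted log2 fold changes of these 5 were 0.48 (SE 0.18, q = 0.270), 1.29 (SE 0.44, q = 0.234), 0.54 (SE 0.20, q = 0.274), 0.80 (SE 0.33, q = 0.320) and 0.74 (SE 0.32, q = 0.338).
These values rested on the surrogate variables and on single rats. The median over the 10 genes was 0.47 in the fit with 3 surrogate variables but 0.10 for the plain difference in mean log2 CPM, and -0.14 for that difference without Chronic Ethanol rat 5. In limma-voom without surrogate variables, 0 of the 10 genes reached an unadjusted p under 0.05, beside 11.3% of all genes. With edgeR and DESeq2 without surrogate variables it was 2 of the 10 in each, beside 12.1% and 12.6% of all genes. The exact permutation test on log2 CPM gave no p under 0.05 for any of the 10 genes, and the smallest was 0.0649 for Egr2. Without Chronic Ethanol rat 5, only 3 of the 10 genes (Egr2, Npas4 and Ier2) were higher in Chronic Ethanol than in Control rats, against 7 of 10 with it. Without Control rat 5 alone the median was 0.18, with 7 of 10 higher, and without that rat and the 2 that stood apart it was -0.06, with 4 of 10 higher. The difference of Egr2 was 1.20 without Control rat 5 (exact permutation p = 0.00866) and 0.88 without all 3 rats (exact permutation p = 0.0238), both without adjustment. Control rat 5 was the highest Control rat for Egr2, so these p values follow in part from leaving it out and are no test of a rise. In limma-voom without Control rat 5, 0 of the 10 genes were called, beside 0.729% of all genes.
Egr3 and Nr4a3 were lower on average in Chronic Ethanol than in Control rats in the fit as well as in the plain difference. The mean of Nr4a3 was 78.0 ± 30.3 CPM in Chronic Ethanol and 86.8 ± 10.6 CPM in Control, with 4 of 6 rats below every Control rat and 1 above. Its difference in mean log2 CPM was -0.24 (exact permutation p = 0.372), or -0.39 without rat 5 (exact permutation p = 0.0758), and its fitted log2 fold change was -0.03 (q = 0.908). The mean of Egr3 was 61.0 ± 23.7 CPM in Chronic Ethanol and 73.8 ± 9.11 CPM in Control (exact permutation p = 0.147). Without rat 5 its mean was 51.9 ± 9.14 CPM (n = 5), all 5 rats were below all 6 Control rats, and the difference in mean log2 CPM was -0.52 (exact permutation p = 0.00216, the smallest that 5 rats against 6 allow). Rat 5 was the only one of its group not below every Control rat. Leaving it out thus fixed this separation and this p in advance, and they are no test of a fall. The share of all genes free of overlap in the same rats is not given. In limma-voom with 3 surrogate variables and both rats that stood apart left out, Egr3 had a log2 fold change of -0.27 (q = 0.0951), just past the threshold of 0.1, in a fit that called 3.08% of all genes. The call depended on the rats left out and on the surrogate variables. Without rat 5 alone the fitted value was -0.25 (q = 0.798), without Withdrawal rat 1 alone it was -0.14 (q = 0.448), and without both rats and without surrogate variables it was -0.52 (q = 0.183). With all rats the fitted log2 fold change was -0.06 (95% interval -0.67 to 0.56, q = 0.962). Without Control rat 5 as well, the difference of Egr3 in mean log2 CPM was -0.48 (exact permutation p = 0.00794, the smallest that 5 rats against 5 allow and fixed in the same way). Without Control rat 5 alone the fitted log2 fold change was 0.01 (q = 0.997). The choice to leave out these rats was made after their values had been seen.

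**Figure D4:**
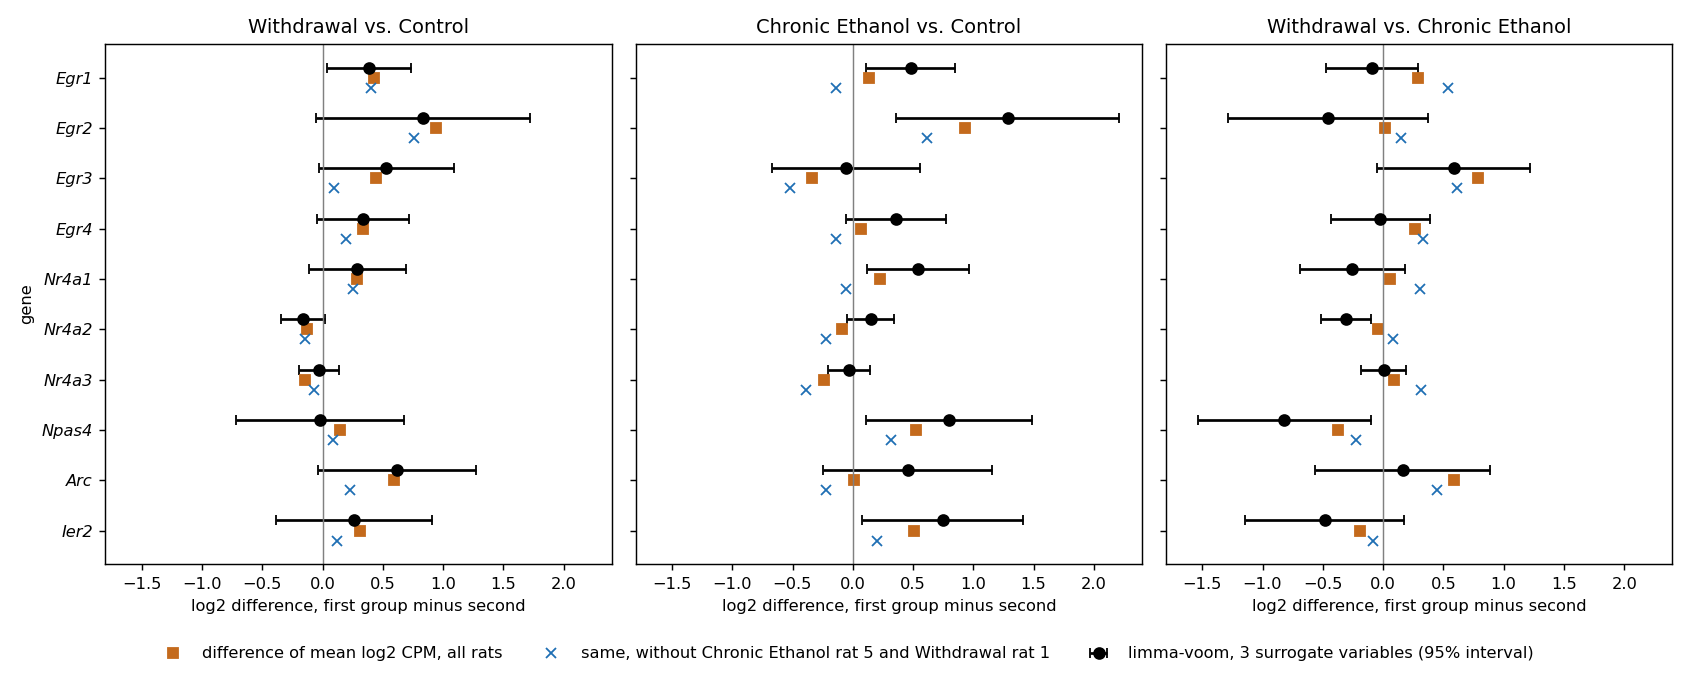
Log2 differences (horizontal axis, first group minus second) of the 10 genes in the 3 comparisons, as fitted by limma-voom with 3 surrogate variables (circles, 95% interval), as the difference in mean log2 CPM of all rats (squares), and as that difference without Chronic Ethanol rat 5 and Withdrawal rat 1 (crosses). In Chronic Ethanol vs. Control the median moved from 0.47 (circles) to 0.10 (squares) and -0.14 (crosses).

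The third comparison, Withdrawal vs. Chronic Ethanol, asks what differed between rats with and without the 24 h of withdrawal. Of the 10 genes, 0 were called by limma-voom, beside 2.72% of all genes. At an unadjusted p under 0.05 there were 2 genes, both with a negative fold change (Nr4a2 and Npas4), beside 16.7% of all genes. With the same surrogate variables edgeR called 0 of the 10 and DESeq2 called 1, Nr4a2, beside 2.98% and 6.59% of all genes. The log2 fold change of Nr4a2 was -0.31 (SE 0.10, q = 0.128) and that of Npas4 was -0.82 (SE 0.34, q = 0.236). The plain differences in mean log2 CPM were smaller, at -0.04 for Nr4a2 (exact permutation p = 0.823) and -0.38 for Npas4 (exact permutation p = 0.342), and without the 2 rats that stood apart that of Nr4a2 was 0.08 (exact permutation p = 0.762).
The 2 scales gave different directions for 4 genes. Egr1, Egr2, Egr4 and Nr4a1 had a negative fitted log2 fold change and a positive difference in mean log2 CPM. The median over the 10 genes was -0.17 in the fit and 0.08 for the plain difference.
Egr3 had means of 124 ± 106 CPM in Withdrawal and 61.0 ± 23.7 CPM in Chronic Ethanol (difference in mean log2 CPM 0.79, exact permutation p = 0.0823). Its fitted log2 fold change was 0.59 (SE 0.30, q = 0.337). With both rats that stood apart left out, the means of Egr3 were 81.7 ± 22.8 CPM (n = 5) and 51.9 ± 9.14 CPM (n = 5), the exact permutation p was 0.0476, and limma-voom with 3 surrogate variables gave a rise with a log2 fold change of 0.42 (q = 0.00862), in a fit that called 10.4% of all genes. Without both rats and without surrogate variables it was 0.61 (q = 0.0891), where 7.77% of all genes were called. Without Chronic Ethanol rat 5 alone it was 0.77 (q = 0.185) and without Withdrawal rat 1 alone 0.27 (q = 0.129), so Egr3 was called with both rats left out and not with either one alone. Egr1 had an exact permutation p of 0.0556 in the same 10 rats.
Chronic Ethanol rats shared an index set only with Withdrawal rats 1 and 2. Within that set the median difference over the 10 genes was 0.33, with 0 of the 10 and 0 of all genes called by limma-voom without surrogate variables, and 2 of the 10 (Egr3 and Arc) at an unadjusted p under 0.05, beside 6.09% of all genes. Among those Withdrawal rats was rat 1, the highest of all rats for both genes. With Withdrawal rat 2 alone against the 6 Chronic Ethanol rats, a value with no test that was added after seeing the data, the median difference was 0.31, and the differences were 0.70 for Egr3 (1.62 with both) and 0.55 for Arc (1.49 with both). The comparison with Control within an index set could not be made. All 3 comparisons share rats, so their values are not independent of each other.

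The surrogate variables took up 52.8% of the variance within groups for the median member, beside 43.2% for the median of all genes. The share was 91.6% for Nr4a3, 73.7% for Nr4a2, 64.7% for Egr1 and 62.9% for Nr4a1, and it was 19.8% for Ier2. The SE of the fitted log2 fold change was small for Nr4a3, at 0.08 in Withdrawal vs. Control, and large for Egr2, at 0.42.

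The other genes of the pathway formed 5 lists with 66 genes tested. One of them, the AP-1 gene Fosl1, passed the filter on low values (above 0.5 CPM in 1 or more rats) through 2 Withdrawal rats alone, so it could enter the test only by being high there, and it is left out of the counts. Of the other 65 genes, limma-voom called 9 (13.8%) at q under 0.1 over all genes in Withdrawal vs. Control, beside 5.41% of all genes, and 1 (1.54%) in Withdrawal vs. Chronic Ethanol, beside 2.72%. These shares are a description with no test. In Withdrawal vs. Control, 0 of the other 6 AP-1 genes were called by limma-voom (1 at an unadjusted p under 0.05), and 3 of 18 other immediate early genes, 1 of 17 upstream regulators and 2 of 15 later activity-regulated genes rose, while 2 upstream regulators and 1 later gene fell. Of 9 partners and corepressors, which include Nab1 and Nab2 (binders of EGR proteins) and the retinoid X receptors that pair with NR4A proteins, 0 were called in any comparison by limma-voom, and the counts at an unadjusted p under 0.05 were 1, 0 and 0. In Chronic Ethanol vs. Control, 0 genes of these 5 lists were called, beside 0.493% of all genes. In Withdrawal vs. Chronic Ethanol, 1 upstream regulator fell.
The level of Fosl1 ran from 0.112 to 3.91 CPM in Withdrawal, from 0.0253 to 0.137 CPM in Control and from 0.0269 to 0.142 CPM in Chronic Ethanol rats, a description with no test, with the highest value in Withdrawal rat 1. Maff, which encodes a small MAF transcription factor, rose by 1.81 (q = 0.0355), with 1.88 to 12.7 CPM in Withdrawal and 0.945 to 1.93 CPM in Control rats. Gadd45g, a growth arrest gene, rose by 0.70 (q = 0.0392) and was the only one of the called genes whose groups did not overlap, with 8.32 to 17.3 CPM in Withdrawal and 5.36 to 7.47 CPM in Control rats. Ier5l rose by 0.46 (q = 0.0694). All 4 were highest in Withdrawal rat 1.
Among the later genes, the growth factor gene Bdnf rose by 0.67 (q = 0.0868) and the secreted peptide gene Vgf by 0.71 (q = 0.0784), each with its highest value in Withdrawal rat 1, whereas Syt4, a synaptotagmin gene, had a log2 fold change of -0.14 (q = 0.0788). Among the upstream regulators, the CREB coactivator gene Crtc1 was lower (-0.17, q = 0.0639) and Atf1, a relative of CREB, was higher (0.16, q = 0.0855) in Withdrawal than in Control rats. The kinase gene Mapk3 was lower in Withdrawal than in Chronic Ethanol rats (-0.17, q = 0.0787).

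Over the 18 rats, Pearson's r between the log2 CPM of 2 of the 10 genes ranged from 0.11 (Nr4a3 with Npas4) to 0.93 (Egr3 with Arc), with no test, since the rats share groups and libraries share the scaling. The next closest pairs were Egr1 with Nr4a1 (0.92), Egr4 with Arc (0.90) and Egr4 with Nr4a1 (0.89). Without the 2 rats that stood apart (16 rats), r was 0.83 for Egr3 with Arc, 0.85 for Egr1 with Nr4a1 and 0.92 for Egr4 with Nr4a1. Nr4a3 with Egr3 went from 0.38 to 0.88 and Nr4a3 with Arc from 0.40 to 0.80, and Nr4a3 had been low in Withdrawal rat 1, where Arc and Egr3 were highest. In the 16 rats, r of Npas4 was -0.07 with Nr4a3, 0.04 with Egr3 and 0.77 with Ier2.
The genes outside the 10 that were most like the mean of the 10 standardized levels over the 18 rats were Junb (r = 0.91), an AP-1 gene, Chgb (0.88), which encodes chromogranin B, and Fmnl1 (0.88), Carmil2 (0.87) and Tbc1d10b (0.87). The gene with the highest r of all 17853 genes was another member only for Egr1 (Nr4a1, r = 0.92). It was Junb for Nr4a1 (0.93) and Ier2 (0.93), Klf10 for Egr3 (0.98), Fmnl1 for Egr4 (0.92), Cdc34 for Egr2 (0.84), the cannabinoid receptor gene Cnr1 for Nr4a3 (0.98), Emc10 for Npas4 (0.90) and the EGR corepressor gene Nab2 for Arc (0.97). For Nr4a2 it was a gene listed only by the identifier 103693584 (0.87).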

How the data were processed

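The deposited files hold raw counts per gene for each of 18 rats. Per the submitters' notes, the authors aligned stranded paired-end reads with STAR (version 2.5.2a), with Rnor_6.0 as the genome, and counted them on exons with featureCounts (version 1.5.0). Groups and replicate numbers came from the sample labels. No pair of rats of a group had counts within sampling noise of each other (chi-square per degree of freedom of at least 5.68 in 45 pairs). Of the 38445 identifiers, 29322 were named from the RefSeq table of GRCr8, which was used for names and promoter sequences only.

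TMM scaling was done with edgeR 4.0.16, on genes above 0.5 CPM in 1 or more rats. They were tested with limma 3.58.1 (voom) in R 4.3.3, in one model of all 18 rats with 3 surrogate variables from sva 3.50.0, estimated on log2 CPM (prior count 2). The number of surrogate variables followed earlier work on these data and was not taken from the published methods, which do not state it. Two-sided p values were adjusted within each comparison by the Benjamini-Hochberg method, with q < 0.1 as the threshold. For single genes, every split of the rats was also enumerated in an exact permutation test (two-sided) in Python 3.11.15 with numpy 2.4.6 and pandas 2.3.3, and plots were drawn with matplotlib 3.10.9. The model was tested on simulated data of 17853 genes for Withdrawal vs. Control, where 177 of 200 genes changed by 2-fold were recovered with 16 false calls. The changed genes were drawn from genes at large. In the data, the median SE in that comparison was 0.228 for the members, beside 0.0768 for all genes. The recovery therefore does not say how often a change in a member would be called.

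The members, the gene lists and the cell type markers were chosen with earlier results of these data known. Named from other lists were up to 4 genes per list and comparison with the smallest q under 0.1, and, by correlation over the rats, the 5 genes most like the members together and the 1 most like each. Other list genes are named as examples, chosen after their values were seen. The alternatives were 0 to 5 surrogate variables, edgeR and DESeq2 1.42.0 in place of limma, quality weights per sample, different scalings or filters on low counts, q < 0.05, models of the compared groups alone, a replicate block, 1 index set, and omission of 1 rat at a time. Counting error is largest for Egr2, with a lowest count of 19. The values of 1 upstream regulator are not reported here.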

Additional observations from a re-analysis of the deposited data

Results flagged for a closer look

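In 30 groups of 6 rats (10 genes in 3 groups), 11 groups had a highest rat whose gap to the next exceeded Dixon's 95% limit, and chance alone flags about 5% of such groups. The 10 genes are not independent of each other, and 5 of the 11 values belonged to Chronic Ethanol rat 5, 3 to Withdrawal rat 1 and 3 to Control rat 5.

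In Chronic Ethanol rat 5 the values far from the other 5 rats were Egr1 at 117 CPM (others 28.8 to 54.0), Egr2 at 6.03 CPM (others 1.10 to 1.90), Egr3 at 106 CPM (others 38.4 to 61.0), Nr4a1 at 118 CPM (others 23.6 to 50.9) and Ier2 at 29.6 CPM (others 6.50 to 10.6). In Withdrawal rat 1 they were Egr3 at 337 CPM (others 42.8 to 97.7), Arc at 409 CPM (others 52.9 to 137) and Ier2 at 17.5 CPM (others 7.16 to 9.19). In Control rat 5 they were Egr1 at 51.0 CPM (others 36.8 to 41.5), Egr2 at 2.61 CPM (others 0.481 to 1.16) and Ier2 at 10.5 CPM (others 6.06 to 7.33). Ier2 was thus apart in a rat of each group.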

How the results depend on the processing

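The count of 0 members called held in every comparison under 0, 1, 2 and 4 surrogate variables, edgeR with and without surrogate variables, sample quality weights, other scalings, other filters and q < 0.05. Over the fits at q < 0.1 with all rats and groups, without a replicate block, in which 0 members were called, 0.185% to 9.1%, 0.0307% to 2.65% and 0.566% to 8.36% of all genes were called in Withdrawal vs. Control, Chronic Ethanol vs. Control and Withdrawal vs. Chronic Ethanol. In Withdrawal vs. Control it became 2, beside 6.6% of all genes, with only the 2 groups compared (Egr1, q = 0.0383, and Nr4a2, q = 0.0963) and 1 (Egr1, q = 0.0849), beside 4.32%, without both rats that stood apart. Leaving out 1 rat gave 0 to 1 called, with Egr1 called (q = 0.0518), beside 6.19%, without Chronic Ethanol rat 5. In Chronic Ethanol vs. Control it became 1 (Egr3) without both rats, beside 3.08%. In Withdrawal vs. Chronic Ethanol it became 1 with 5 surrogate variables (Ier2, log2 fold change -0.83, q = 0.0568), beside 4.88% of all genes, 1 by DESeq2 with 3 (Nr4a2, q = 0.0508), beside 6.59%, and 1 by DESeq2 without surrogate variables (Egr3, q = 0.0917), beside 8.08%. It became 1 (Egr3) without both rats, beside 10.4%, and 2, beside 7.77%, without both rats and without surrogate variables (Egr3, q = 0.0891, and Egr1, q = 0.0971, whose log2 fold change reversed from -0.09 to 0.54). There, leaving out 1 rat gave 0 to 1 called, with Nr4a2 called (q = 0.0982), beside 3.11%, without Chronic Ethanol rat 1. The causes were not tested.

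With the replicate number as a block, 0 members were called without surrogate variables in all 3 comparisons, where 0%, 0% and 0.0784% of all genes were called, so these counts say nothing of the members. With 3 of them it was 1 (Egr2, q = 0.0944), 0 and 0, beside 5.27%, 0.185% and 0.0056% of all genes. Rats with the same number are different animals, and their deviations correlated at -0.32 to 0.38, with 5 of 18 rats closest to a rat of their own number.

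Counts over all genes varied widely. In Withdrawal vs. Control, the 965 genes became 0 to 1624 under other settings and 23 to 1911 when 1 rat was left out. In Chronic Ethanol vs. Control, 88 became 0 to 548 and 0 to 258, and in Withdrawal vs. Chronic Ethanol 486 became 0 to 1859 and 0 to 1800. At q < 0.05 they were 370, 10 and 112. When 1 rat was left out, the median member difference ranged from 0.16 (without Withdrawal rat 1) to 0.44, from -0.14 (without Chronic Ethanol rat 5) to 0.23, and from -0.03 (without Chronic Ethanol rat 1) to 0.34 in the same order. The fitted direction of a member changed in 65 of 580 other fits and in 33 of 540 fits with 1 rat left out. Npas4 in Withdrawal vs. Control (10 and 6 fits) and Egr4 in Withdrawal vs. Chronic Ethanol (11 and 6 fits) changed most often.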
